A study of Mus musculus with 2 samples.

Results

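The accessible regions described here lie deep inside the introns of very long genes of the mouse retina. They were taken from the ATAC-seq peak lists of control and Ngn3-overexpressing (Ngn3-OE) late retinal progenitor cells (RPCs). A peak was a member when its summit, the base with the highest signal, lay in a protein-coding gene with a body of at least 300 kb, outside every annotated exon and more than 3 kb from every annotated transcript start. Of 21938 protein-coding genes in the GENCODE annotation of mm10, 567 reached that length, with a median of 450.5 kb and a range from 300.3 to 4434.9 kb. The control list had 11225 such long-gene intronic peaks among 117165 peaks (9.58%), and the Ngn3-OE list had 12019 among 124935 (9.62%). The 567 gene bodies together covered 324.7 Mb of the genome.

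ATAC-seq uses the Tn5 transposase to tag DNA that is not wrapped in nucleosomes, and peaks mark where the tagged ends accumulate. Plasmids were introduced by in vivo electroporation into late RPCs of mouse pups at postnatal day 1, retinas were collected at day 2 after electroporation, and 50000 GFP-labeled cells were isolated by FACS for each library. The control library came from cells with the control plasmid and the Ngn3-OE library from cells with the plasmid that overexpresses Ngn3 (Neurog3), a basic helix-loop-helix factor that binds E-box motifs. The strain, the number of pups pooled and the promoter of the plasmids are not given in the sources used here. There was 1 library per group, so no difference between control and Ngn3-OE could be tested, and every interval below covers counting error only.

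As a check of the labelled cell type, all 7 examined RPC genes (Pax6, Rax, Sox2, Lhx2, Six3, Hes1 and Notch1) had a peak within 1 kb of a start in both libraries, with a median of 50 summit tags in control and 42 in Ngn3-OE. Peaks were also found at 1 of 4 microglial genes in control and 2 of 4 in Ngn3-OE, none above 8 tags, and at 2 of 4 and 1 of 4 endothelial genes, none above 10 tags. Cx3cr1, Aif1, Pecam1 and Cdh5 had no such peak in either list.

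Genes of this length consist almost entirely of intron. Many encode neuronal adhesion molecules, synaptic proteins, ion channels and axon guidance receptors, and another group encodes transcription factors and their cofactors whose introns hold enhancers that act over long distances. Transcription of such a gene takes hours, and several of the longest lie at common fragile sites, regions that tend to break when replication is slowed. In the newborn retina, OTX2 and CRX act in the photoreceptor lineage, while SOX-family factors such as SOX2, SOX8 and SOX9 act in progenitors and Müller glia.

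The sequences below come from the 5 control and 5 Ngn3-OE members that were strongest by −log10 q, the peak caller's significance after correction for multiple testing, among those with no overlapping peak in the other list. They are shown because the motifs that differ between the libraries can be read in them. Each lies in an intron of the gene that names it, more than 3 kb from any annotated start. Capitals mark the letters CATCTG (E-box), TAATCC (OTX/CRX), CCATTGT or CCTTTGT (SOX), or the reverse complement of one of these. The letters are read from GRCm38, the same build as mm10.
Etl4, control-only, chr2:20689521-20689757, plus strand: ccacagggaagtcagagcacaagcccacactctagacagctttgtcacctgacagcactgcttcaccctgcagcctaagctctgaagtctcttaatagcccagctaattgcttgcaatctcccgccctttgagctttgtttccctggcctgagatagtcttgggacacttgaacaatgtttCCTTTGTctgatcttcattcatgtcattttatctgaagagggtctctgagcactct
Ephb1, control-only, chr9:102069261-102069391, plus strand: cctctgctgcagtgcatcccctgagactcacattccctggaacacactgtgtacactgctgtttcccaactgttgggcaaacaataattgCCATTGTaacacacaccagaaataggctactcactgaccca
Sox5, Ngn3-OE-only, chr6:144621519-144621627, plus strand: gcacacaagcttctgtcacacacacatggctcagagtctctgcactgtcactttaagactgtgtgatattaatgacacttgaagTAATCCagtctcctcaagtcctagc
Iqcm, Ngn3-OE-only, chr8:75956135-75956287, plus strand: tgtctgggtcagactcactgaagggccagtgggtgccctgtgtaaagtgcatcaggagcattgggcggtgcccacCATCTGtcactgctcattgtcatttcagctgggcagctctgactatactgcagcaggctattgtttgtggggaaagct
Hecw2, Ngn3-OE-only, chr1:53823994-53824081, plus strand: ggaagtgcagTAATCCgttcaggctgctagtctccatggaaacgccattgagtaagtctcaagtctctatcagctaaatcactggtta

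The control-only peak in Etl4, a gene needed for the vertebral column, had a −log10 q of 31.0 and 24 tags (sequence tags piled up at the summit, as recovered from the list), and the one in Ephb1, an Eph receptor of axon guidance, had 28.9 and 20 tags. Both carried a SOX motif. The Ngn3-OE-only peak in Sox5, itself a SOX-family gene, had a −log10 q of 25.4 and 18 tags, and it carried an OTX/CRX motif, as did the peak in Hecw2, an E3 ubiquitin ligase gene, with 21.7 and 16 tags. The peak in Iqcm had 23.5 and 17 tags and carried an E-box. The remaining control-only peaks among the 5 strongest lay in Nbea (19 tags, SOX and AP-1 motifs), Runx2 (17 tags, CTCF) and Slc2a13 (15 tags, AP-1). An Ngn3-OE-only peak in Kalrn, the gene of the guanine nucleotide exchange factor kalirin, had a −log10 q of 18.3 and 16 tags and none of the motifs searched.

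A further set of sequences shows members that were called in both libraries and differed most in height. Rere and Tenm4 had 2 of the 4 smallest Ngn3-OE to control ratios, and Klhl1 and Kcnt2 the largest ratios among pairs with summits at most 100 bp apart, a condition added after the values were seen.
Rere, higher in control, chr4:150540497-150540730, plus strand: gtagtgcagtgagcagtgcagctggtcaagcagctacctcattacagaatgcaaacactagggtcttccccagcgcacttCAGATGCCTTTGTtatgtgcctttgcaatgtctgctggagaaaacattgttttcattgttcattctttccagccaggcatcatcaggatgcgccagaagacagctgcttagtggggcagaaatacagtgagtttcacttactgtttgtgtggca
Tenm4, higher in control, chr7:96746060-96746301, plus strand: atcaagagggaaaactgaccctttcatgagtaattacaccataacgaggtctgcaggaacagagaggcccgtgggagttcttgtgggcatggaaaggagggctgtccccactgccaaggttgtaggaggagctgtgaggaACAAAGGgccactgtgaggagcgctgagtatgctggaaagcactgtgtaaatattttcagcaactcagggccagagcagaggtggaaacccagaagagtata
Klhl1, higher in Ngn3-OE, chr14:96489801-96489952, plus strand: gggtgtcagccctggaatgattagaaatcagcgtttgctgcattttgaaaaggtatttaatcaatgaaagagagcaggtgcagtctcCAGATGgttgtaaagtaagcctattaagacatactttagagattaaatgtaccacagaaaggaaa
Kcnt2, higher in Ngn3-OE, chr1:140293192-140293362, plus strand: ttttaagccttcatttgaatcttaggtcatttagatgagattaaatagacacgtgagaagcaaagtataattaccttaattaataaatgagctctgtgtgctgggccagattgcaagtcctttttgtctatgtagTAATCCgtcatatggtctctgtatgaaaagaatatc

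The Rere peak, in the gene of an atrophin-family corepressor, had 20 tags in control and 3 in Ngn3-OE, and an E-box and a SOX motif lay side by side in it. The Tenm4 peak, in a teneurin adhesion gene, had 58 and 11 tags and carried a SOX motif. The Klhl1 peak had 8 tags in control and 33 in Ngn3-OE and carried an E-box, and the Kcnt2 peak, in a potassium channel gene, had 6 and 23 tags and carried an OTX/CRX motif. These values are single measurements of each region in each library.

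Very long genes held fewer intronic peaks for their length than genes of 100 to 300 kb. Per 100 kb of intron that the rule could reach, the pooled density in control was 5.46 (95% Poisson interval 5.37 to 5.55) in genes of 100 to 300 kb, 4.58 (4.45 to 4.70) in genes of 300 to 500 kb, 3.73 (3.62 to 3.85) from 500 kb to 1 Mb, and 2.92 (2.80 to 3.04) in the 59 genes of 1 Mb or longer. In Ngn3-OE the same classes had 5.97, 4.97, 3.96 and 3.06. In both libraries density was therefore lower at each step from 100 kb upward, and the intervals of neighbouring classes did not overlap. Genes of 30 to 100 kb, at 4.95 and 5.52, and those under 30 kb, at 4.18 and 4.73, lay below the class of 100 to 300 kb. The median GC content of the gene bodies also fell along the classes, from 42.8% at 100 to 300 kb to 39.2% at 1 Mb or longer, and its part in the density was not tested.

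**Figure D1:**
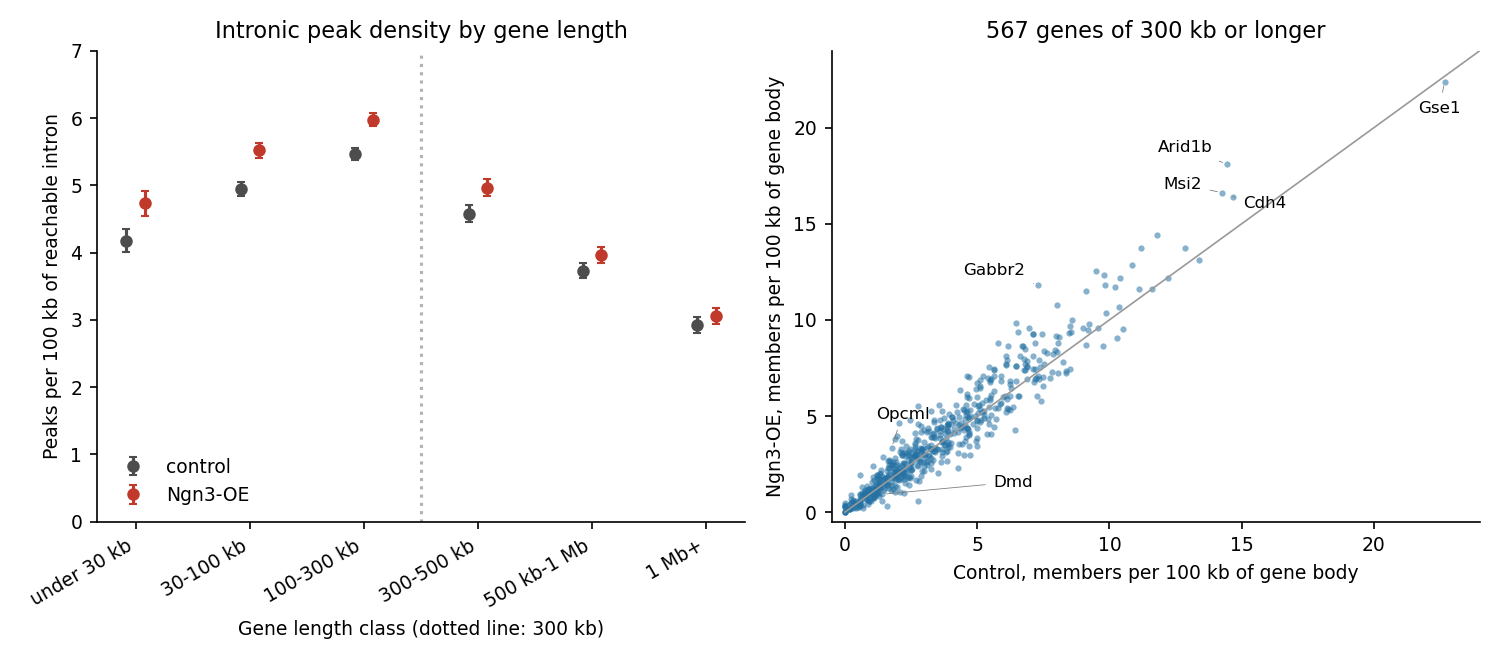
The left panel plots intronic peaks per 100 kb of reachable intron by gene length class for control and Ngn3-OE (points, pooled density; bars, 95% Poisson intervals), where the control density falls from 5.46 at 100 to 300 kb to 2.92 at 1 Mb or longer and the Ngn3-OE density from 5.97 to 3.06. The right panel plots members per 100 kb of gene body in Ngn3-OE against control for the 567 genes (1 point per gene; the line marks equal densities), and Gse1 lies apart at 22.7 and 22.4.

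Among the very long genes themselves, the density varied far more between genes than between libraries. The median gene had 3.05 members per 100 kb of gene body in control (quartiles 1.66 and 5.11) and 3.26 in Ngn3-OE (1.76 and 5.44). A member was present in 557 genes in control and in 563 in Ngn3-OE, and 17 and 23 genes had more than 10 members per 100 kb. The densities of the 567 genes in the 2 libraries ranked alike (Spearman's rank correlation 0.95, Pearson's r 0.96), as a description across genes that share the same cells, depth and sequence.

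The densest gene in both libraries was Gse1 (chr8:120228456-120581390), which encodes a component of histone deacetylase-containing corepressor complexes, with 80 members in control and 79 in Ngn3-OE. Arid1b (chr17:4994332-5347656), a DNA-binding subunit of the BAF chromatin remodelling complex, had 51 and 64 members, or 14.4 (10.75 to 18.98) and 18.1 (14.0 to 23.1) per 100 kb. Cdh4, the gene of R-cadherin, had 14.7 and 16.4 per 100 kb, Msi2, the gene of the Musashi RNA-binding protein of progenitors, had 14.2 and 16.6, and Dscaml1, an adhesion gene that spaces retinal neurons, had 12.8 and 13.8. In all 5 of these genes the intervals of the 2 libraries overlapped. When a −log10 q of at least 5 was asked of each member, the library with more members changed in Msi2 (38 in control and 34 in Ngn3-OE) and Gse1 (56 and 58).

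At the other end, 4 genes had no member in either list, for which the exact Poisson upper limit was 0.707 members per 100 kb in Skint5, 0.765 in Skint6, 0.966 in Dnah7c and 1.101 in Lrfn5. Skint5 and Skint6 belong to a family of immunoglobulin-like genes of skin and thymus, Dnah7c is 1 of several near-identical dynein genes, and Lrfn5 encodes a synaptic adhesion protein. The Skint and Dnah7 families have close copies in the genome, and how reads that map to several places were treated is not given in the sources used here, so a density of 0 there is uncertain. Dpp10, an auxiliary subunit of neuronal potassium channels, had 1 member in each list over 724.1 kb, and the 2 peaks did not overlap.

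Genes of higher GC content held more members for their length. In the quartile of genes with the lowest GC content (34.6% to 38.6%) the median gene had 1.33 members per 100 kb in control and 1.42 in Ngn3-OE, and in the quartile with the highest (43.3% to 54.5%) it had 5.89 and 6.61. Across the 567 genes, the mean density of both libraries had a Spearman's rank correlation of 0.69 with GC content, −0.74 with the share of repeat-masked sequence and −0.13 with gene length. These are descriptions of related sequence properties of the same genes. The densest gene, Gse1, also had the highest GC content of all, 54.5%.

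Some annotated models span many other genes. The model Gm20388, of 4434.9 kb, holds 71 other protein-coding genes and contains Gse1, and it had the most members of any gene, 327 in control and 335 in Ngn3-OE. The annotated Fgfr2 model, of 2960.9 kb, holds 29 others and had 144 and 167 members. Models that hold 5 or more other genes numbered 8 and carried 560 control and 599 Ngn3-OE members, some of which also count for a gene inside them. Among the other genes with most members were Lsamp with 87 and 89, Camta1, a calmodulin-binding transcription activator, with 76 and 83, Ntm with 73 and 81, and Tenm2 with 68 and 75. Lsamp and Ntm are IgLON adhesion genes.

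By gene role, transcription factor genes stood on the dense side and channel and adhesion genes on the sparse side. Of 35 very long genes of DNA-binding transcription factors, 29 had a mean density above the median of all very long genes, which 283 of 567 genes exceed. Their medians were 4.98 members per 100 kb in control and 5.49 in Ngn3-OE, against 3.05 and 3.26 over all. Bach2, a repressor best known from lymphocytes, had 41 and 50 members, Nfib, a nuclear factor I gene of late progenitors, had 41 and 43, Rora, a nuclear receptor gene best known from the cerebellum, had 54 and 51, and Zfhx3 had 60 and 58. When a −log10 q of at least 5 was asked of each, the library with more members changed in Bach2 (32 and 29) and Zfhx3 (27 and 36). The median gene GC content was 42.2% in this list and 40.9% over all, 38.8% in the axon guidance list, 40.2% in the channel and receptor list and 38.7% in the adhesion and synapse list. Median gene lengths, in the same order, were 404.3, 450.5, 477.2, 490.9 and 915.8 kb. The parts of GC content and gene length in the contrast by role were not tested.

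Of 17 very long axon guidance genes, 11 lay above the overall median, and the list had medians of 4.68 in control and 4.87 in Ngn3-OE. Reln, the secreted guide of migrating neurons, had 32 members in control and 44 in Ngn3-OE, or 20 and 19 when a −log10 q of at least 5 was asked of each, while Dab1, the adaptor that relays its signal, had 59 and 55. Slit3 had 38 and 40 members, and its receptor gene Robo1 had 35 and 37. The counting intervals of the densities overlapped between libraries for each of these genes.

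Of 40 ion channel and receptor genes, 12 lay above the overall median, with list medians of 1.88 in control and 2.14 in Ngn3-OE. Grid1, a delta-type glutamate receptor gene, had 40 members in each library, and Kcnma1, the BK potassium channel gene, had 37 and 39. Trpm3, a cation channel gene whose intron holds a microRNA gene active in the eye, had 42 and 43. Of 54 adhesion and synapse genes, 21 lay above, with medians of 2.18 and 2.16 and a spread from 0.156 in Cntnap5c to 15.5 in Cdh4 as the mean of both libraries.

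The other lists hold fewer genes. Of 6 RNA-binding protein genes, 4 lay above it, with Rbfox3, the gene of the neuronal marker NeuN, at 40 members in control and 53 in Ngn3-OE, and Rbfox1 at 56 in each. Of 16 genes of growth factor signalling and glypicans, 8 lay above, led in number by Alk with 45 and 40 members and Gpc6 with 42 and 38. Of 10 genes of retinal structure and inherited retinal disease, 5 lay above, and among them Dscam had 39 and 50 members and Sdk1 had 36 and 42. Both encode adhesion molecules that sort retinal neurons into sublayers. Of 12 genes at common fragile sites, with a median length of 1511 kb, 3 lay above, and the list medians were 2.18 and 1.91. Macrod2, Wwox and Dlg2 in this list had 68 and 62, 63 and 63, and 48 and 46 members.

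**Figure D2:**
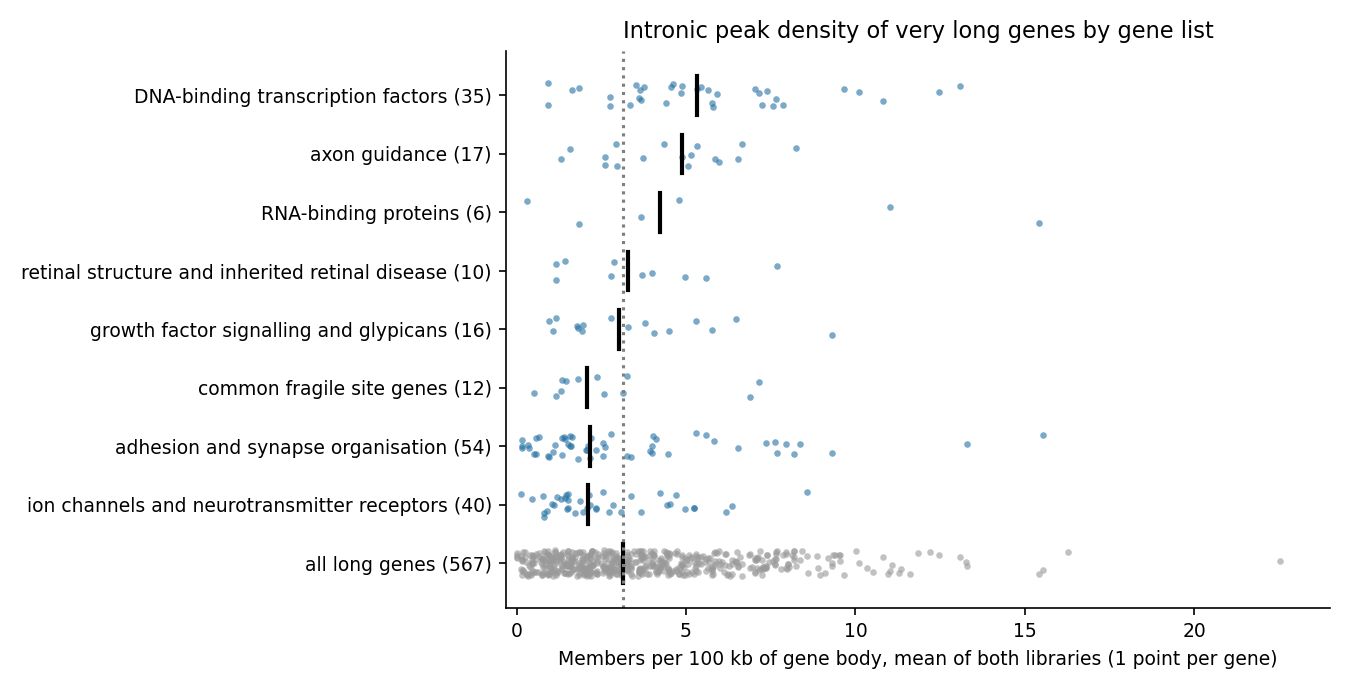
Each point is a very long gene, placed by its members per 100 kb of gene body (mean of both libraries) and grouped by gene list, with all 567 genes at the bottom. Black bars are list medians and the dotted line is the median of all very long genes, which 29 of 35 transcription factor genes and 12 of 40 channel and receptor genes exceed.

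Within the genes, members were spread over the whole body. When each gene was divided into 10 equal parts, leaving out the 8 models that hold 5 or more other genes, the shares of control members ran from 8.18% in the first part to 10.9% in the ninth, and those of Ngn3-OE members from 8.38% to 10.9%. Counted by distance from the annotated gene start, the control density was 2.79 per 100 kb (2.29 to 3.36) between 3 and 10 kb and 3.82 (3.66 to 3.98) between 200 and 300 kb, and in Ngn3-OE it was 3.04 (2.52 to 3.64) and 4.15 (3.99 to 4.32). The rule leaves out 3 kb around every alternative start, while these densities are per full length of the stretch. The part of this exclusion in the lower values near the start was not tested. Neighbouring members lay a median of 11.2 kb apart in control and 10.4 kb in Ngn3-OE, against 7.77 and 7.22 kb in genes of 100 to 300 kb, and 20.1% and 21.0% of the gaps were 2 kb or shorter.

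**Figure D3:**
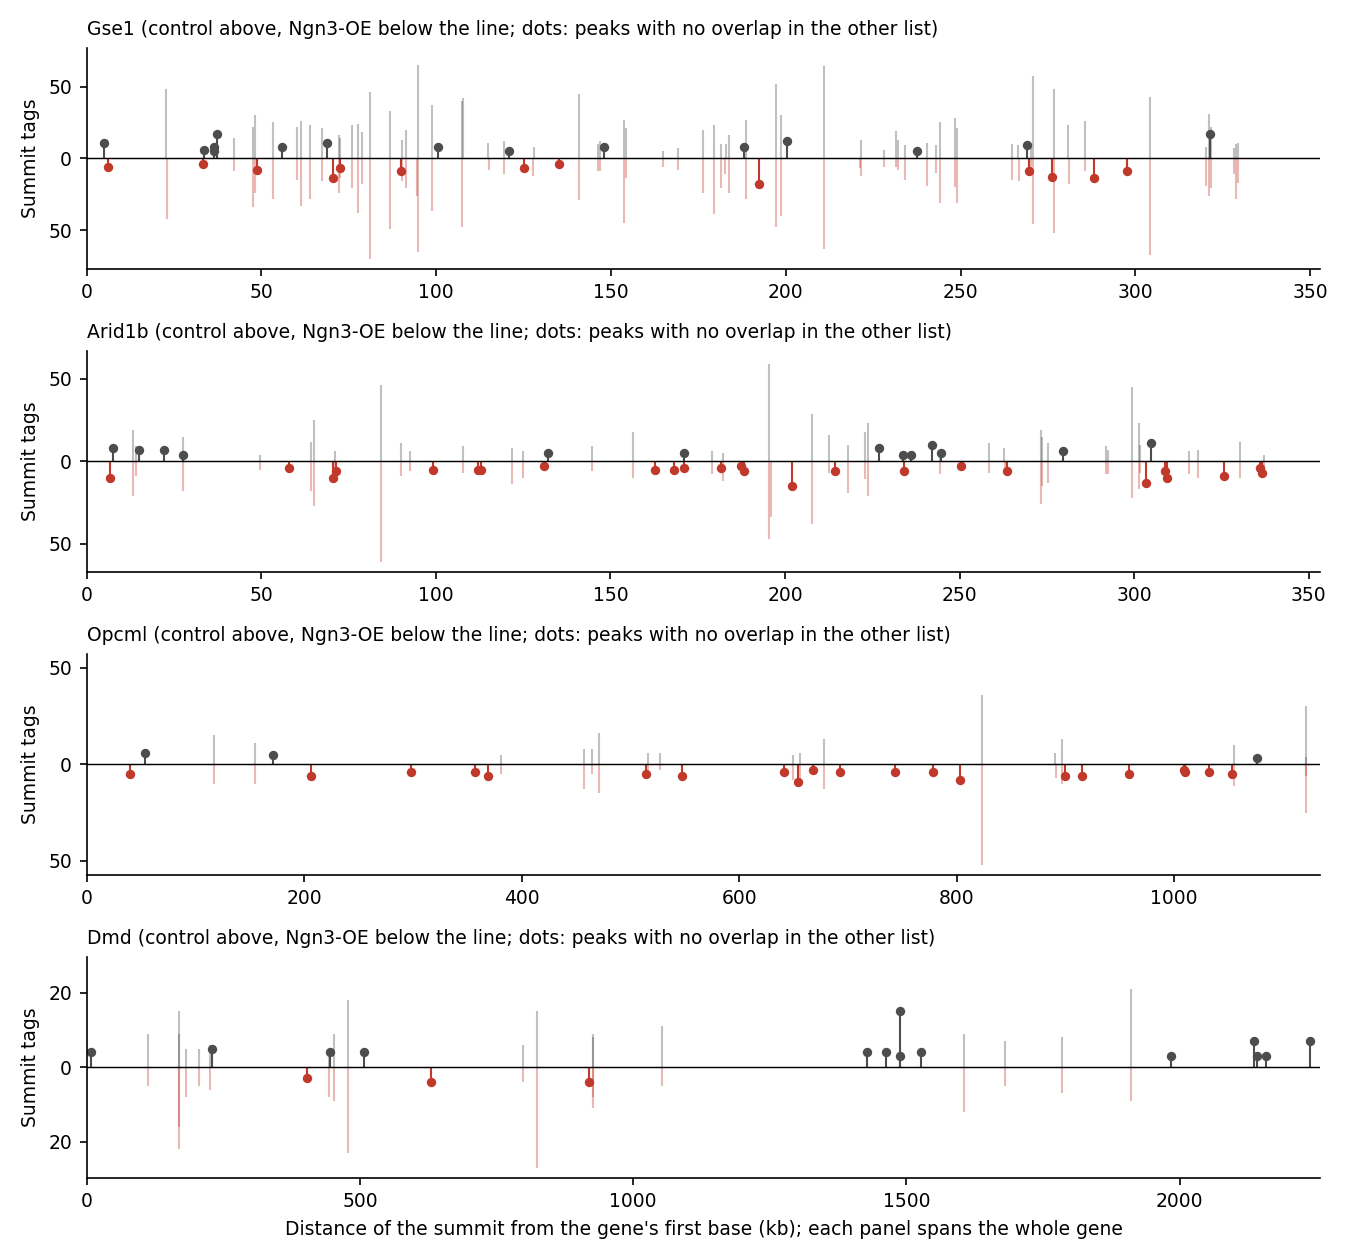
Member peaks along the densest genes (Gse1, Arid1b) and along the genes with the largest excess of Ngn3-OE-only (Opcml) and control-only (Dmd) members among models with fewer than 5 nested genes; the horizontal axis is the distance from the gene's first base in kb and the vertical axis the tags at the summit. Control is drawn upward and Ngn3-OE downward, pale lines are shared peaks and dots are one-library peaks, which reach 18 tags in Gse1, 15 in Arid1b, 9 in Opcml and 15 in Dmd.

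Most members were shared between the libraries, where shared means an overlap of at least 1 bp with a peak of the other list. Of the control members 71.7% (95% Wilson interval 70.9 to 72.5) overlapped an Ngn3-OE peak, and of the Ngn3-OE members 67.3% (66.4 to 68.1) overlapped a control peak. This left 3178 control-only members (28.3%) and 3934 Ngn3-OE-only members (32.7%), where the background over all peaks was 21.7% in control and 26.6% in Ngn3-OE. Intronic peaks of genes under 300 kb, the closer comparison, were shared in 75.8% and 68.7%. The difference in shared share, members minus shorter genes, was thus −4.09 percentage points in control (Newcombe interval −5.09 to −3.099) and −1.39 points in Ngn3-OE (−2.40 to −0.386).

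Members were also weaker peaks than those of shorter genes. At most 5 tags at the summit were found in 35.7% of control and 36.3% of Ngn3-OE members, against 30.5% and 30.2% in shorter genes, and the median was 7 tags for members in both libraries and 8 for shorter genes. The share of shared peaks rose from 36.7% of control and 30.5% of Ngn3-OE members in the weakest decile of the list to 100% in the strongest. With the shorter-gene peaks weighted to the same deciles of strength, the difference was −2.38 points in control and 1.07 points in Ngn3-OE. The sign in Ngn3-OE thus turned, but no interval was computed for the weighted values. Control members were shared less than shorter-gene peaks in deciles 1 to 6 and 8, with the widest gap in decile 5 (77.7% against 83.1%). In control, the interval of the difference left out 0 in deciles 2, 3 and 5 and included it in the others. In Ngn3-OE it included 0 in every decile, so the deciles show no clear difference in either direction there.

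**Figure D4:**
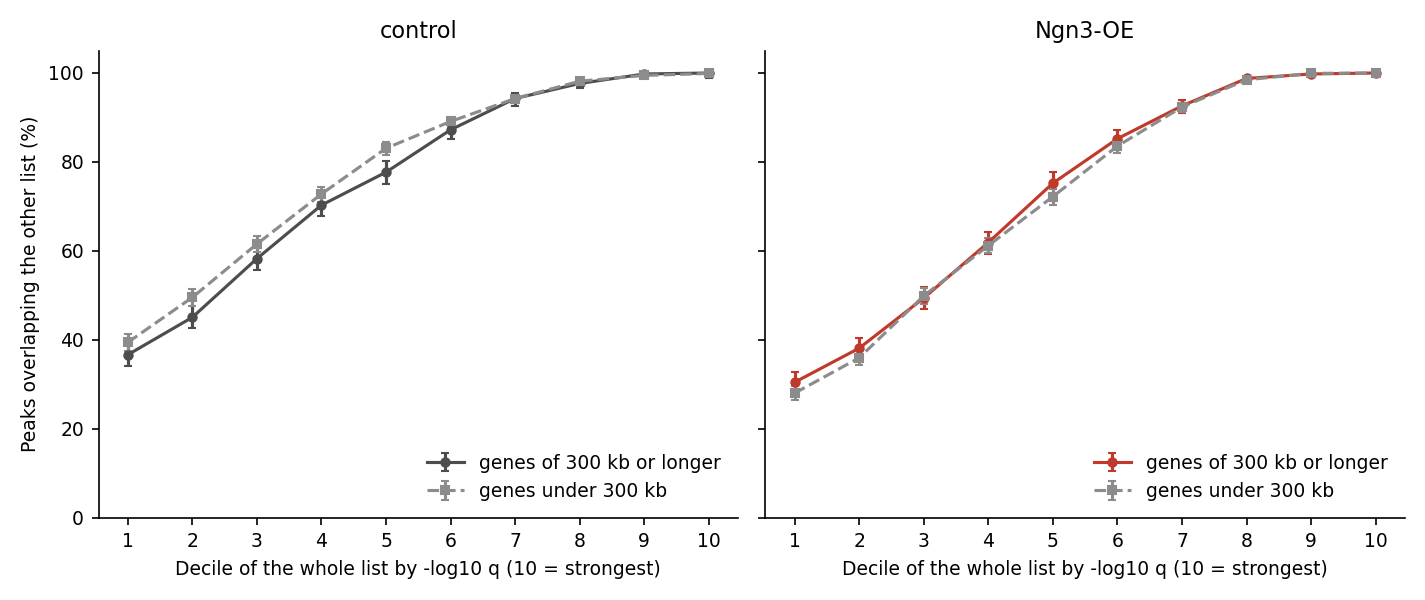
Share of intronic peaks that overlap the other library's list (vertical axis, %), by decile of the whole list in −log10 q (10 is the strongest), for genes of 300 kb or longer and under 300 kb; control is on the left and Ngn3-OE on the right, and bars are 95% Wilson intervals. In both panels the share climbs with strength to 100% of members, and in control the long genes lie below the shorter ones in deciles 1 to 6.

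One-library members were almost all weak. Their median was 5 tags in both libraries, against 9 tags for shared members. At a −log10 q of at least 5, 754 of 6564 control members (11.5%) and 926 of 6932 Ngn3-OE members (13.4%) lacked a partner, and at 10 or more 81 of 3257 (2.49%) and 76 of 3445 (2.21%). At 20 or more there were 4 of 1475 and 3 of 1560. Under the limit of 5, the shared share of members minus that of shorter genes was −2.42 points (−3.34 to −1.54) in control. In Ngn3-OE it was −0.0416 points (−1.01 to 0.904), so the Ngn3-OE members lay at the level of shorter genes. In deciles 9 and 10 of the list, members were shared in 99.8% and 100% in each library. Shorter-gene peaks there were shared in 99.5% and 99.9% in control and in 99.9% and 100% in Ngn3-OE. The shares over all peaks at these −log10 q limits were not computed. The lists give no signal for a region that was not called.

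The strongest members were shared. The highest by −log10 q in control lay in Lsamp, with 91 tags in control and 70 in Ngn3-OE, in Mcc with 106 and 126, in Ptprg, a receptor phosphatase gene, with 98 and 113, in Maml3, a Notch coactivator gene, with 100 and 118, and in Slc35f1 with 91 and 50.

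Across genes, one-library members were more often in excess in Ngn3-OE. Of 554 very long genes with a one-library member, 310 (56.0%, 51.8 to 60.0) had more Ngn3-OE-only than control-only members and 188 had fewer. The background in genes under 300 kb was 55.4%, so the share in very long genes lay at the background. The longer Ngn3-OE list, with 1.07 times as many members (1.043 to 1.099) and 1.07 times as many peaks in all, moves with this count, and its part was not tested.

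The genes with the largest excess are given as a description, since the excess chose them. The annotated Fgfr2 model had 35 control-only and 58 Ngn3-OE-only members. Opcml (chr9:27790775-28925410), an IgLON adhesion gene, had 20 members in control and 38 in Ngn3-OE, of which 3 and 21 were in one library. The 21 Ngn3-OE-only peaks ran from 40.0 to 1053.8 kb from the gene start and had a median of 5 tags and at most 9. Pard3, a cell polarity gene, had 6 and 22, and Gabbr2 (chr4:46662305-46991873), a subunit of the GABA-B receptor, had 1 and 16. Limited to members with a −log10 q of at least 5, Fgfr2 had 82 in control and 86 in Ngn3-OE, Opcml had 15 and 19, Pard3 had 27 and 36, and Gabbr2 had 13 and 16.

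The largest excess of control-only members was in Dmd (chrX:82948870-85206141), the dystrophin gene, which has a retinal product at the photoreceptor synapse. It had 32 members in control and 21 in Ngn3-OE, of which 14 and 3 were in one library, with a median of 4 tags in each set. On the whole X chromosome the Ngn3-OE list had 1.05 times the control peaks (0.998 to 1.11), and for long-gene members there the ratio was 0.924 (0.751 to 1.14). Cacna2d3, a calcium channel subunit gene, had 15 control-only and 5 Ngn3-OE-only members, Ccdc178 had 8 and 0, and Grip1, a glutamate receptor scaffold gene, had 21 and 13. Limited to members with a −log10 q of at least 5, control and Ngn3-OE had 18 and 13 members in Dmd, 24 and 19 in Cacna2d3, 4 and 2 in Ccdc178, and 27 and 26 in Grip1. In all 8 genes named for an excess, the counting intervals of the 2 libraries' densities overlapped.

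By role, most lists lay near the very long genes as a whole. Over all 567 genes, with a member counted in each gene that holds it, 28.2% of control and 32.6% of Ngn3-OE members were in one library. These shares were 27.6% and 33.8% for adhesion and synapse genes, 25.1% and 33.1% for axon guidance genes, and 29.1% and 34.2% for transcription factor genes. They were 28.5% and 32.0% for channel and receptor genes, 29.5% and 34.6% for RNA-binding protein genes, and 29.8% and 31.6% for retinal genes. Genes at common fragile sites went the other way, with 144 control-only members (33.3%) and 111 Ngn3-OE-only members (27.8%). Among the 12 fragile site genes, 8 had more control-only and 3 had more Ngn3-OE-only members. Dmd, which this list shares with the retinal one, accounted for 14 and 3 of the peaks. This list is singled out because it departed from the others, and no interval was computed for its shares. Growth factor and glypican genes had 103 and 104, or 31.1% and 31.2%.

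For shared members, the height of the peak was compared as the number of tags at the summit in Ngn3-OE over control, relative to the median of all shared peaks of the lists. The 8047 shared members had a median log2 ratio of 0.01, with quartiles of −0.42 and 0.44, so the median member was about as high, relative to all shared peaks, in both libraries. Among the 1757 pairs with at least 20 tags in the higher library, 99 (5.64%) were at least 2-fold higher in Ngn3-OE, where the background over all shared pairs was 4.24%. At least 2-fold higher in control were 219 pairs (12.5%, 11 to 14.1), with a background of 5.53%. Intronic pairs of shorter genes had 6.70% and 9.11%. The share higher in control was thus 3.35 points above that of shorter genes (1.65 to 5.17), while the share higher in Ngn3-OE differed by −1.06 points (−2.31 to 0.305). A pair passed the limit of 20 tags through its higher library alone. Members were weaker peaks than those of shorter genes, and these differences were not matched for strength, so they are descriptions.

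Some pairs joined summits that lay apart within a wide peak. The pairs with the largest ratios, in Nrg3 with 5 and 37 tags, Trappc9 with 4 and 25, Ralyl with 7 and 31 and Gpc5 with 14 and 58, had summits between 175 and 508 bp apart, so their values compare neighbouring summits. With summits at most 100 bp apart, 5.31% of member pairs were 2-fold higher in Ngn3-OE and 11.6% in control, where the backgrounds were 2.98% and 5.39%. Intronic pairs of shorter genes with such summits had 6.05% and 8.68%. The differences, members minus shorter genes, were −0.735 points (−1.96 to 0.616) and 2.95 points (1.26 to 4.75). Under that condition, which was added after the values were seen, the largest ratios were in Klhl1, Kcnt2, Nbas (9 and 33 tags), a gene of vesicle traffic, and Cntnap5a (6 and 21 tags), a neurexin-family gene.

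The smallest ratios had close summits. They were in Rere with 20 tags in control and 3 in Ngn3-OE, Dennd1a, a Rab exchange factor gene, with 25 and 4, Celf2, an RNA-binding protein gene, with 28 and 5, and Tenm4 with 58 and 11. Pairs at least 2-fold higher in control were most numerous in Lrrc4c, a synaptic adhesion gene, where 6 of 8 pairs with at least 20 tags were so, and in Bach2, where 5 of 16 were. Both counts were picked out after the values were seen. Neither gene had a pair 2-fold higher in Ngn3-OE.

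Motif content differed between members found in one library and members found in the other. The letters were searched on both strands within 100 bp of the summit, and none of these motifs contains another. OTX/CRX letters were found in 21.8% of the members listed in Ngn3-OE alone and in 10.2% of those listed in control alone, a difference of 11.5 points (9.86 to 13.2). E-box letters were found in 27.6% and 22.2%, a difference of 5.45 points (3.44 to 7.45), and the longer E-box consensus of the study gave 3.45 points (2.64 to 4.28). SOX letters went the other way, with 6.97% and 13.5%, a difference of −6.50 points (−7.95 to −5.09). In all control peaks, E-box, OTX/CRX and SOX letters were present in 21.3%, 13.9% and 8.80%, and in all Ngn3-OE peaks in 22.6%, 16.5% and 7.41%. Shared members had 27.7%, 20.6% and 9.62% at the control summit and 27.5%, 20.8% and 9.52% at the Ngn3-OE summit. In E-box and OTX/CRX letters, Ngn3-OE-only members thus lay near the shared members and control-only members below them. In SOX letters, control-only members lay above the shared members and Ngn3-OE-only members below.

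Shared members that differed in height showed the same directions with wider gaps. OTX/CRX letters were present in 39.4% (30.3 to 49.2) of the 99 pairs higher in Ngn3-OE and in 3.20% (1.56 to 6.45) of the 219 pairs higher in control. E-box letters were present in 36.4% and 15.5%, a difference of 20.8 points (10.5 to 31.5), and SOX letters in 4.04% and 28.8%, a difference of −24.7 points (−31.5 to −16.6). Each window was taken at the summit of the higher library. Among pairs in genes under 300 kb, the same differences were 37.1 points for OTX/CRX, 21.9 for the E-box and −27.4 for SOX. The Sox5, Hecw2 and Kcnt2 sequences above carry the OTX/CRX letters, the Iqcm and Klhl1 sequences the E-box letters, and the Etl4, Ephb1 and Tenm4 sequences the SOX letters. The Rere sequence, higher in control, carries the E-box letters as well as the SOX letters, and the Dennd1a and Celf2 peaks carry none of the motifs searched. Among the strongest one-library peaks, those in Runx2, Slc2a13 and Kalrn carry no E-box, OTX/CRX or SOX letters. The one-library sequences were shown because such letters can be read in them, so they are examples only.

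The same differences were of similar size in shorter genes. Among intronic peaks of genes under 300 kb, Ngn3-OE-only minus control-only gave 11.3 points for OTX/CRX, 6.24 for the E-box and −5.94 for SOX, each inside the interval of the members' difference. AP-1 letters (TGANTCA) were less frequent in Ngn3-OE-only members by 1.72 points (0.496 to 2.96 lower), at 6.56% against 8.28%, and with a −log10 q of at least 5 the difference was −1.18 points, with an interval (−3.79 to 1.34) that included 0.

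**Figure D5:**
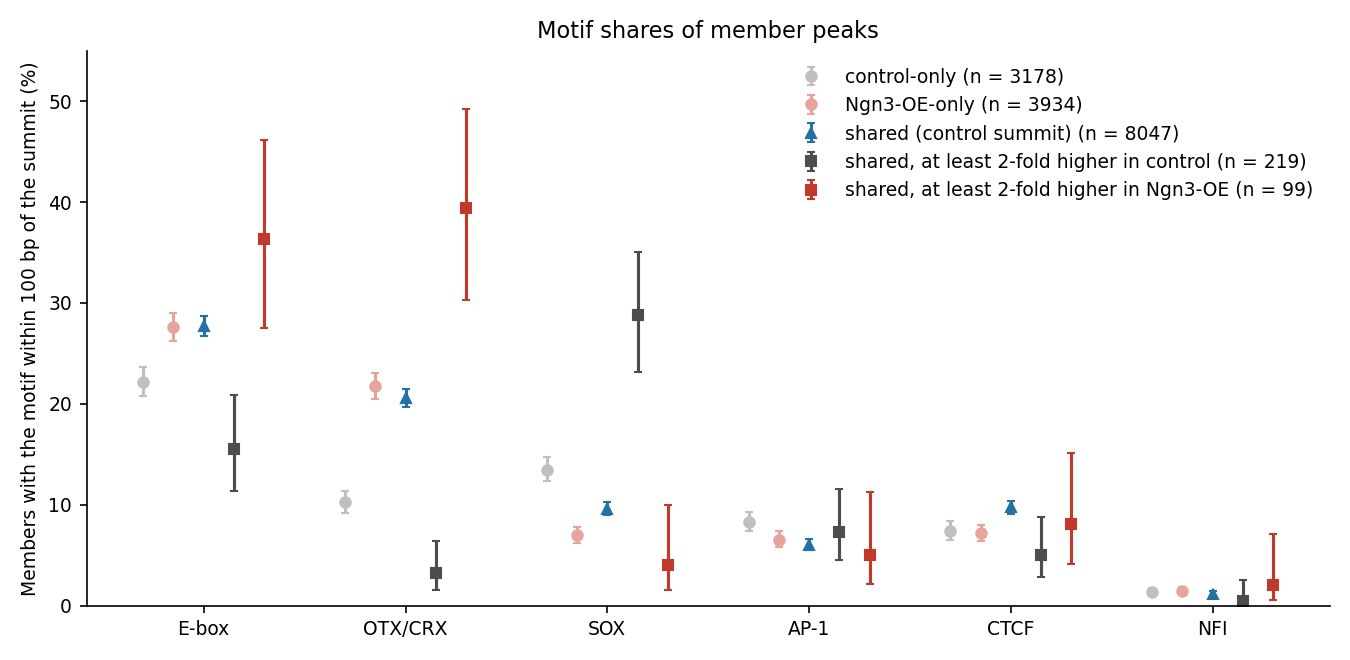
Share of member peaks with each motif within 100 bp of the summit (vertical axis, %; bars, 95% Wilson intervals) for control-only, Ngn3-OE-only and shared members and for shared members at least 2-fold higher in either library. OTX/CRX letters stand at 39.4% in pairs higher in Ngn3-OE and 3.20% in pairs higher in control, and SOX letters at 4.04% and 28.8%.

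Members of very long genes differed from those of shorter genes in CTCF letters. The core AGGGGGC or AGGTGGC, part of the site of the insulator protein CTCF, was found in 9.07% of control and 9.04% of Ngn3-OE members, against 12.5% and 12.1% in shorter genes, lower by 3.42 points (2.74 to 4.09 lower) and 3.02 points (2.37 to 3.66 lower). NFI letters, TGGC and GCCA with 5 bases between, were rare in all sets, at 1.24% and 1.21% of members and 1.83% and 1.66% of shorter-gene peaks. For the E-box, OTX/CRX, SOX and AP-1 letters, the intervals of the difference between members and shorter genes included 0 in both libraries. The bases within 100 bp of a member's summit had a median GC content of 47.8% in both libraries, against 50.2% in shorter genes, and the part of GC content in the CTCF difference was not tested. Fewer member summits lay in repeat-masked sequence, with 6.35% in control and 6.84% in Ngn3-OE against 8.60% and 9.01%.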

How the data were processed

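ATAC-seq libraries of 1 control and 1 Ngn3-OE sample were analysed, grouped by the sample titles. Per the study's methods and the labels, the authors trimmed reads with Trimmomatic, aligned them to mm10 with Bowtie2, removed duplicates, mitochondrial reads and blacklisted regions (Picard, SAMtools, bedtools), kept short fragments, shifted ends for Tn5 (deepTools) and called peaks in each library with MACS2. The deposited lists give per peak an integer score, the fold enrichment as a ratio over local background, and the −log10 of p and q; these are the authors' values and are not normalised between libraries. The lowest −log10 q was 1.30 in both lists. The authors' differential regions and RNA-seq were not used here.

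Lines with identical intervals were merged (128853 control and 136761 Ngn3-OE lines), and 159 and 150 lines off the assembled chromosomes were left out. Summits were placed on the comprehensive GENCODE M21 annotation. Summit tags were solved from fold enrichment and p, assuming a Poisson background, with a whole number recovered for 100% of peaks. The depth of the libraries is unknown from the lists, and tags stand in for it, with a median of 9 per peak in both. Named genes were those with most members (8), highest and lowest density (5 each), largest one-library excess (4 each way) and most members per gene list (up to 4); named peaks were the 5 strongest of each class and the 4 largest and 4 smallest tag ratios. Some items that these rules select are not reported here. Members, gene lists, markers and motifs were chosen with earlier results of these data known. Shares have 95% Wilson intervals, differences Newcombe intervals and densities exact Poisson intervals; neighbouring peaks are not independent. Functions were tested on simulated data. Analyses used Python 3.11.15 with numpy 2.4.6, pandas 2.3.3 and scipy 1.17.1. Alternatives covered gene length, distance from starts, q, overlap, reference genes, tag scaling, every summit counted, motif windows and a longer E-box consensus.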

Additional observations from a re-analysis of the deposited data

How the results depend on the processing

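No paired analysis was possible because each group had 1 library, and for the same reason no library could be left out. Of 90 alternative values, 55 stayed within counting error or within 1.5 times the reported count, 34 moved and 1 reversed. The difference in shared share between members and shorter genes in Ngn3-OE, −1.39 points as reported, became 1.07 points when shorter genes were weighted to the members' ranks, −0.0416 with a −log10 q of at least 5, −0.00836 in the top 50000 peaks, −2.77 with 50% overlap and −0.929 (−2.06 to 0.204) against genes of 100 to 300 kb. In control, −4.09 points became −2.38 with the weighting, −2.42 with the q limit and −2.57 against genes of 100 to 300 kb.

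With genes of 500 kb or longer, there were 6127 control and 6480 Ngn3-OE members and the control median density was 2.67 per 100 kb. Limiting members to a −log10 q of 5 or more left 6564 and 6932 of them and medians of 1.79 and 1.93. Under that limit 27 of 94 counts of named genes stayed within 1.5 times, and the library with more members changed from Ngn3-OE to control in Reln (20 and 19), Msi2 (38 and 34), Bach2 (32 and 29), Lsamp (46 and 40), Tenm2 (40 and 37), Trpm3 (28 and 27), Celf2 (23 and 20), Fstl4 (17 and 16), Gm37240 (45 and 44) and Kcnma1 (22 and 21), and from control to Ngn3-OE in Gse1 (56 and 58), Dab1 (28 and 29), Zfhx3 (27 and 36), Gpc6 (27 and 28) and Dlg2 (29 and 30). The library with more members also changed in Gm20388 (218 and 213), Lsamp (82 and 81) and Celf2 (39 and 37) at more than 10 kb from starts, and in Lsamp (91 and 90), Gse1 (102 and 105), Slit3 (43 and 40) and Zfhx3 (61 and 63) with every summit counted. The medians were 3.36 and 3.67 from 200 kb, 2.49 and 2.61 at more than 10 kb from starts, and 3.41 and 3.63 per reachable intron. The shared share was 60.1% and 56.2% with 50% overlap, 69.2% and 64.7% with summits within 100 bp, 88.5% and 86.6% with the q limit, and 72.9% of Ngn3-OE members in the top 50000 peaks. The median log2 tag ratio was 0.13 relative to the lowest background and 0.12 in pairs with at least 20 tags. With the q limit the motif differences widened to 10.3 points for the E-box, −11.7 for SOX and 14.5 for OTX/CRX, while AP-1 went from −1.72 to −1.18, with an interval that included 0; with 50 bp windows SOX gave −4.69 and OTX/CRX 9.73, and with 250 bp windows CTCF, −0.226 as reported, gave 1.05. The basic annotation, the removal of models holding 5 or more genes and, for the counts of 2-fold pairs, the nearest-summit pairing were added after seeing the data, and under them the counts stayed within 1.5 times. The lists bound what low peaks can show, since the median one-library member had 5 tags.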
